A study of Homo sapiens with 6 samples.

Results

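Genes that write, erase or move chromatin marks were compared between Panc-1 cells with and without TGFβ. The genes were taken by symbol: those starting with KDM, HDAC, SMARC, ARID, DNMT, SETD or PRMT, and TET1, TET2, TET3, EZH1, EZH2, EED and SUZ12, with KDM3A and Y-linked genes left out. Of the 54675 probe sets on the array, 226 named 1 of these genes and no other, and together they covered 83 genes of the 19777 named in this way. A mean signal of at least 100 (6.64 on the log2 scale) in either group was reached by 119 of the 226 probe sets, and these gave a value to 66 of the 83 genes.

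Panc-1 is an established human cell line that was derived from a pancreatic adenocarcinoma, and 3 arrays came from untreated cultures and 3 from cultures given TGFβ. Per the labels all cells were kept without serum for 24 h, and the treated ones then received porcine TGFβ at 5 ng/mL for 48 h. By the study's methods, the untreated cells were given fresh plain medium for the same 48 h. The study's methods state the dose as 5 nM, so the sources conflict, and the labels' dose is the one given here. The experiment was carried out 3 times in this single line, and because nothing more is said of how the cultures were kept apart, p-values measure only the spread between these arrays.

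DNA in the nucleus is wound around histones. Enzymes add methyl or acetyl groups to histone tails or methyl groups to DNA, others take them off, and ATP-driven machines such as SWI/SNF slide or evict the histones, which together set how easily a gene can be read. Histone demethylases include the flavin-dependent LSD enzymes and the larger group with a Jumonji domain, while PRC2 is the complex that sets a repressive methyl mark on histone H3. TGFβ induces the epithelial-mesenchymal transition (EMT), in which carcinoma cells lose cell-cell contacts and take on a motile form, and several of these enzymes are known as partners of the transcription factors that run it.

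The 6 arrays were alike in their overall signal, with medians from 5.14 to 5.21 on the log2 scale. Of 6 epithelial markers, 5 had a probe set past the signal limit, and KRT19 did not (5.45 without and 4.19 with TGFβ). CDH1 was past it only without TGFβ (7.58, against 5.56 with it). KRT8 (11.4 to 9.27), KRT18 (13.0 to 11.8) and EPCAM (8.62 to 7.82) were also lower with TGFβ, and KRT7 was higher (6.77 to 7.01). None of 10 markers of leukocytes, endothelium, liver, neurons or fibroblasts passed the limit, the highest being SYP at 6.44. Among genes known to respond to TGFβ, SMAD7 had a mean signal of 7.45 without and 8.52 with the cytokine, and PMEPA1 had 10.0 and 12.8. A change in a gene's signal may come from fewer cells that express it or from less RNA per cell, and these cannot be told apart in bulk RNA.

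With TGFβ, most of the chromatin genes past the limit changed, in both directions and by less than 1.5-fold in all but 5. By limma, 38 of the 66 genes changed at an adjusted p under 0.05 (57.6%), 16 higher and 22 lower with TGFβ. Among all 10115 genes tested, 58.7% changed, 27.7% higher and 31.0% lower, so the share of chromatin genes that changed was close to that of the array as a whole. The chromatin genes were 24.2% higher and 33.3% lower. Their median log2 fold change was -0.048, against -0.013 for all genes, and the median size of a change regardless of direction was 0.21 in both sets. Those 5 were 7.58% of the 66, while 13.4% of all genes changed by at least 1.5-fold. The 3 TGFβ arrays lay all above or all below the 3 untreated ones for 40 of the 66 genes (60.6%), against 68.2% of all genes. Counted by probe set, 26 of 119 rose and 43 fell (58.0% changed), where 26.6% of all 19101 probe sets tested rose, 28.5% fell and 55.1% changed. The counts of genes depended on the replicates: 15 rose and 28 fell without replicate 1, 9 and 14 without replicate 2, and 17 and 13 without replicate 3. Those over all genes moved too. Without replicate 1, 2820 of 10140 rose and 3664 fell. Without replicate 2 it was 2096 and 2200 of 10120, and without replicate 3 it was 2281 and 2435 of 10116. Of the 28 genes that did not pass, 16 passed in at least 1 limma alternative at the same threshold. Without the filter on signal, 11 rose and 16 fell of all 83, beside 2517 and 2786 of all 19777 genes.

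**Figure D1:**
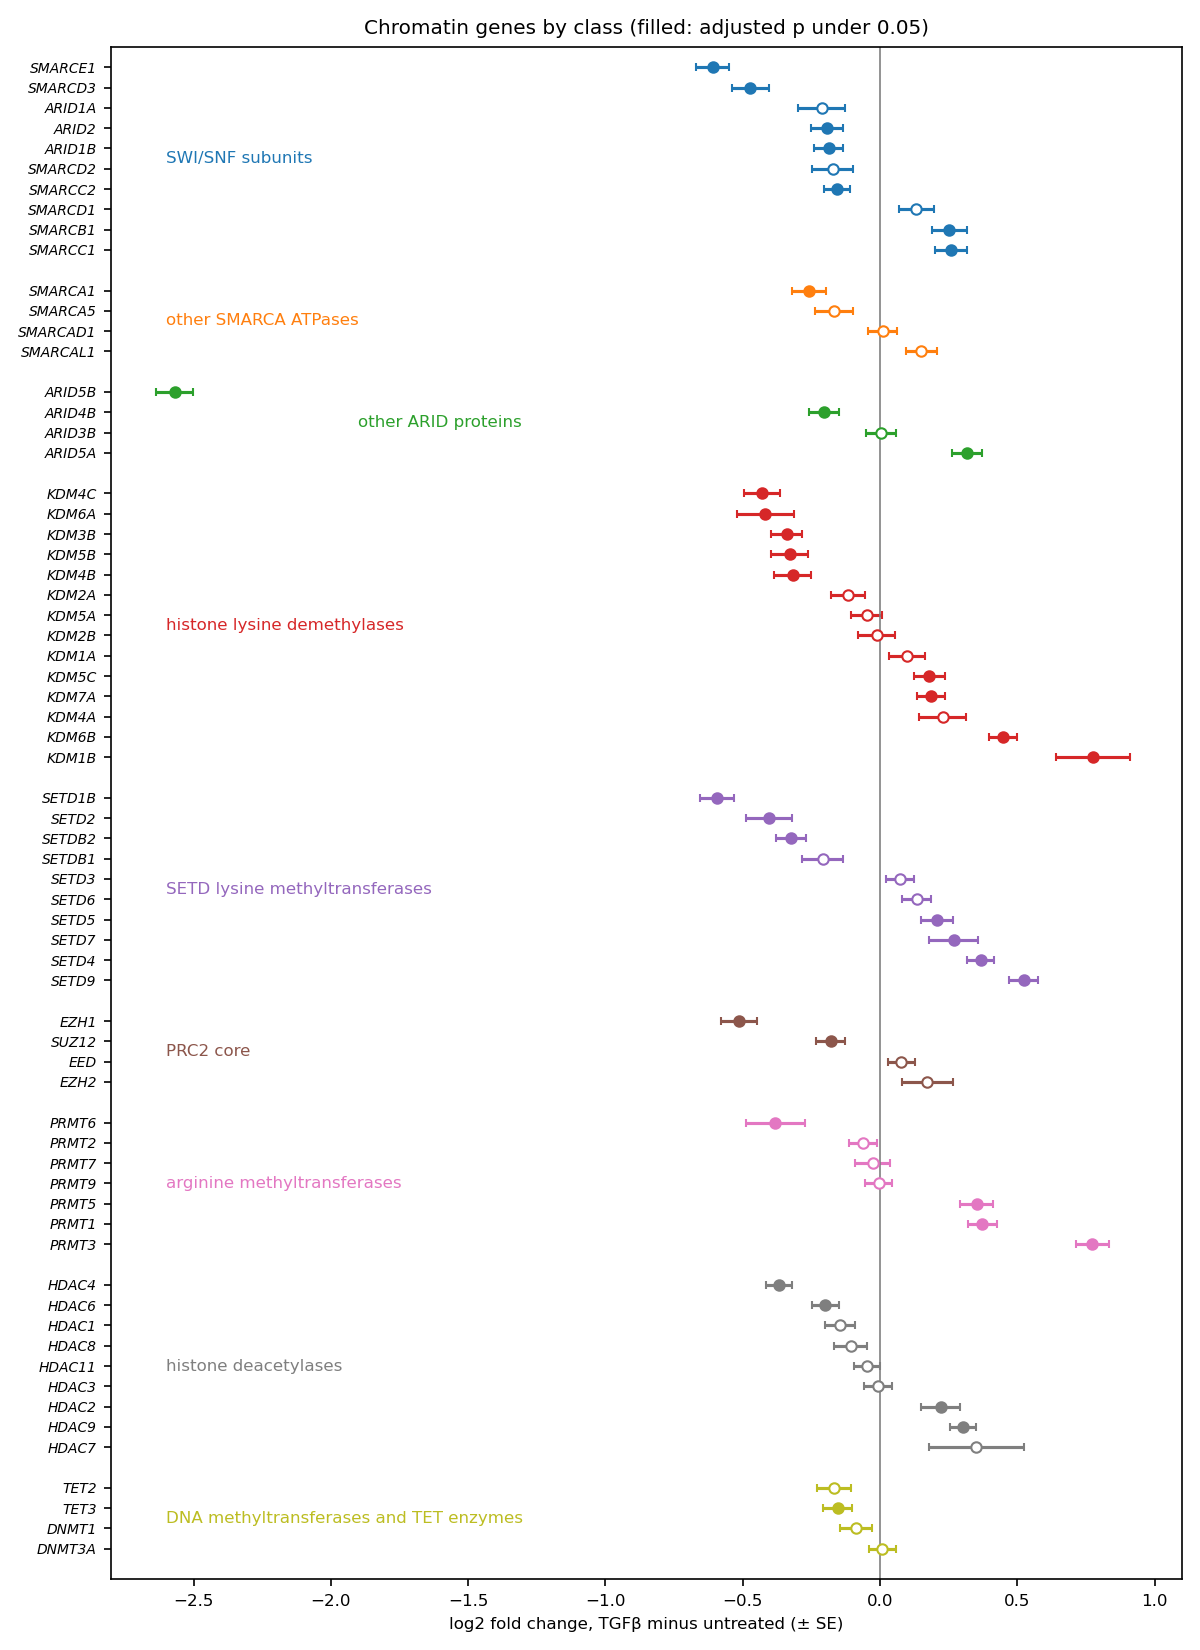
Log2 fold change (TGFβ minus untreated, horizontal axis) of the 66 chromatin genes past the signal limit, grouped by class, with bars for ± 1 SE and filled points for an adjusted p under 0.05. ARID5B, at -2.57, stands far to the left of the others, which all lie between -0.61 (SMARCE1) and 0.78 (KDM1B).

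The 5 genes that changed by at least 1.5-fold were ARID5B, SMARCE1 and SETD1B, which fell, and PRMT3 and KDM1B, which rose. The windows of 250 bases before the start of the gene are printed for the most strongly lowered and the most strongly raised pairs among them, since they lie just upstream of the messages that moved most. They are read 5′ to 3′ on the strand of the gene, from RefSeq on GRCh38.p14, at chr10:61901449-61901698 (plus strand) for ARID5B, chr17:40647819-40648068 (minus) for SMARCE1, chr11:20387466-20387715 (plus) for PRMT3 and chr6:18155172-18155421 (plus) for KDM1B. Capitals mark matches to the letters CAGAC, the SMAD box, or CACGTG, the E-box of MYC and MLX factors, on either strand.
ARID5B: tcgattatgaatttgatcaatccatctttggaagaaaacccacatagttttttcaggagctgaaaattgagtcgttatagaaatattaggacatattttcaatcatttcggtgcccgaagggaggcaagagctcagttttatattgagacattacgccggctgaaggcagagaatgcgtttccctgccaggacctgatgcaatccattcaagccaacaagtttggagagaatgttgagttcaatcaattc
SMARCE1: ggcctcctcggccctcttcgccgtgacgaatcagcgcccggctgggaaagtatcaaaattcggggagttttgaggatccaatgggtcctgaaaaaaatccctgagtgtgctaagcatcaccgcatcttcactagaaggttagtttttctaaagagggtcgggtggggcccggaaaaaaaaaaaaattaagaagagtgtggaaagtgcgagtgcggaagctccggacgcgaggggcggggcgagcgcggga
PRMT3: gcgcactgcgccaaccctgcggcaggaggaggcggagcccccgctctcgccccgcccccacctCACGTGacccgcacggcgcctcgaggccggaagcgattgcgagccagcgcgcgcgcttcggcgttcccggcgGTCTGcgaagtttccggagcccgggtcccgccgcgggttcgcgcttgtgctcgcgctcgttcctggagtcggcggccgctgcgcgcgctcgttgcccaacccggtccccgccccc
KDM1B: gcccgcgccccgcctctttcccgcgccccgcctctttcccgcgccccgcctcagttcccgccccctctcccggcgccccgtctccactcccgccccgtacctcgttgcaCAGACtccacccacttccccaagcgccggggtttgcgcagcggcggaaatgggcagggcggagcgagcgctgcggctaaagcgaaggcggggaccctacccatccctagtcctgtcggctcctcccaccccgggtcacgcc
The windows of the 2 lowered genes held no match to these letters, while that of KDM1B held 1 SMAD box and that of PRMT3 held 1 SMAD box and 1 CACGTG. These windows do not stand for the other chromatin genes that changed. Among all the changed chromatin genes, CACGTG was in 1 of 15 windows of raised (6.67%) and 4 of 19 of lowered genes (21.1%). The printed windows also differed in base composition, with 7 CpG in ARID5B (40.4% G and C) and 19 in SMARCE1 (54.4%), against 43 in PRMT3 (76.8%) and 30 in KDM1B (73.6%).

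ARID5B (Entrez 84159) encodes a DNA-binding protein with an AT-rich interaction domain that recruits the demethylase PHF2 to its targets. Its log2 signal was 10.17, 10.19 and 10.33 on the untreated arrays and 7.77, 7.50 and 7.71 with TGFβ. The groups were far apart, and the mean fell from 10.23 ± 0.090 to 7.66 ± 0.14 (SD, n = 3 arrays per group), 5.94-fold lower (log2 fold change -2.57, SE 0.068, adjusted p = 5.32e-06). Ordered by size of change, this was number 21 of all 10115 genes. The value rests on 1 of 5 probe sets. The other 4 lay under the limit in both groups, with means from 3.72 to 4.18 and differences from -0.13 to 0.10, and the mean over all 5 gave -0.55. The related ARID5A (Entrez 10865), which encodes an RNA-binding protein that steadies the messages of inflammatory genes, moved the other way. Its signal was 7.07, 7.15 and 7.22 without and 7.49, 7.43 and 7.48 with TGFβ, with no overlap (log2 fold change 0.32, SE 0.055, adjusted p = 0.00346). Of the remaining ARID genes outside SWI/SNF, ARID4B, a subunit of the SIN3 co-repressor, fell by 0.20 (SE 0.054), which no longer passed the test without replicate 3 and was -0.35 in its brightest probe set, and ARID3B, a relative of ARID3A, was at 0.0020 (SE 0.055). ARID3A itself stayed under the signal limit.

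**Figure D2:**
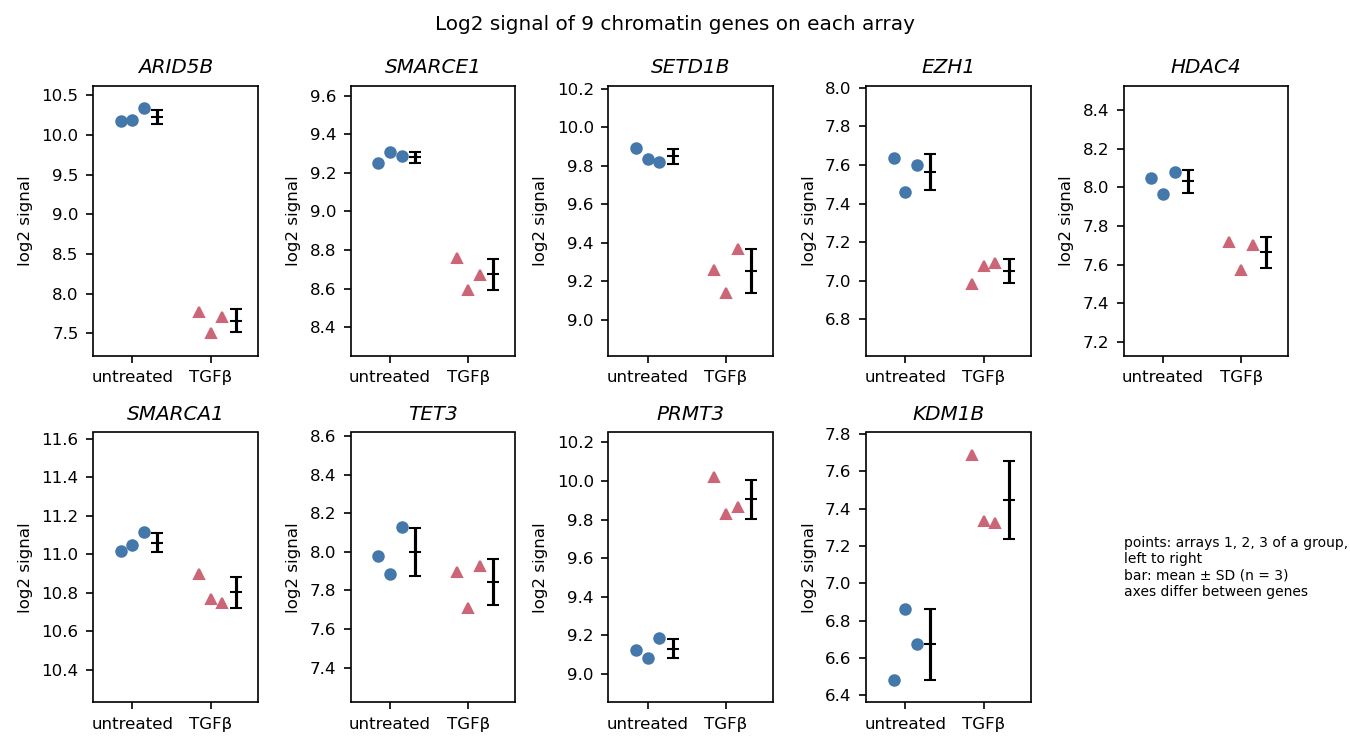
Log2 signal of 9 chromatin genes on each of the 3 untreated (circles) and 3 TGFβ (triangles) arrays, with the mean ± SD of each group (n = 3) and a separate vertical axis for each gene. The groups do not overlap for 8 of the genes, while for TET3 the TGFβ arrays (7.71 to 7.93) reach into the range of the untreated ones (7.89 to 8.13).

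SWI/SNF is built from an ATPase, a core of scaffold subunits and a set of accessory subunits that differ between its BAF and PBAF forms. Of the 10 subunit genes past the limit, 5 were lower, 2 were higher and 3 did not pass. Over all genes, 31.0% were lower and 27.7% higher. The median log2 fold change of the 10 subunit genes was -0.18. The largest fall was in SMARCE1 (Entrez 6605), which encodes the DNA-bending subunit BAF57. Its log2 signal was 9.25, 9.31 and 9.29 on the untreated arrays and 8.76, 8.59 and 8.67 with TGFβ. Every TGFβ array lay below every untreated one, and the mean fell from 9.28 ± 0.029 to 8.67 ± 0.082 (SD, n = 3), 1.53-fold lower (log2 fold change -0.61, SE 0.060, adjusted p = 0.000385). All 4 probe sets of SMARCE1 fell, with log2 fold changes of -1.37, -0.44, -0.42 and -0.20. The first of these went from 7.28 to 5.91, below the limit, and where a signal of at least 100 was asked on every array the gene's log2 fold change was -0.36, still past the test.

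SMARCD3, the BAF60C subunit known from heart and muscle, fell by 0.47 (SE 0.069, adjusted p = 0.0018), from 8.71, 8.69 and 8.72 to 8.37, 8.06 and 8.27. Its relatives SMARCD1 (BAF60A, log2 fold change 0.13, SE 0.064) and SMARCD2 (BAF60B, -0.17, SE 0.076) did not pass the test. The scaffold proteins BAF155 and BAF170 pair with each other in the core, and their genes moved apart. SMARCC1 (BAF155) rose by 0.26 (SE 0.058, adjusted p = 0.00992), whereas SMARCC2 (BAF170) fell by 0.16 (SE 0.049, adjusted p = 0.0336). The core subunit SMARCB1, lost in rhabdoid tumours, rose by 0.25 (SE 0.063). Of the large DNA-binding subunits, ARID1B of BAF fell by 0.19 (SE 0.053) and ARID2 of PBAF fell by 0.19 (SE 0.058), while ARID1A, the relative of ARID1B, was at -0.21 (SE 0.085, adjusted p = 0.0745). Groups did not overlap for 5 of the 10 genes, against 68.2% of all genes. Apart from SMARCE1, each call was lost under at least 1 alternative: SMARCD3 without the filter (-0.13), SMARCC1 when its brightest probe set stood for the gene (0.096), SMARCB1 without the filter (0.093), SMARCC2 under median centring, ARID1B (-0.027) and ARID2 (-0.11) with the brightest probe set, and all but SMARCD3 without replicate 2. SMARCC2 was at -0.28 with its brightest probe set. Calls were gained too: ARID1A passed with its brightest probe set (-0.28, adjusted p = 0.00464), without _x_at probe sets, under quantile normalization and the trend model, and without replicate 1 (-0.27), but was at -0.087 without replicate 3. SMARCD2 passed without replicate 1 (-0.26, adjusted p = 0.00901) and was at -0.080 without replicate 3, and SMARCD1, which did not pass in any alternative, was at 0.087 without replicate 1 and 0.21 without replicate 3.

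The ATPases that drive SWI/SNF, SMARCA2 (BRM) and SMARCA4 (BRG1), stayed under the signal limit. All 7 probe sets of SMARCA2 had group means between 3.66 and 5.74 and all 9 of SMARCA4 between 3.93 and 6.15, below it in both groups. Where the filter was left out, SMARCA2 was at -0.11 (SE 0.071, adjusted p = 0.304) and SMARCA4 at -0.030 (SE 0.053, adjusted p = 0.744). Among ATPases of other remodelling complexes with a SMARCA symbol, 1 of 4 fell and the median log2 fold change was -0.079. Over all genes, 31.0% fell. SMARCA1 (Entrez 6594), the ISWI-type ATPase SNF2L, had signals of 11.02, 11.05 and 11.12 without and 10.90, 10.77 and 10.75 with TGFβ. These groups did not overlap, and the gene was 1.20-fold lower (log2 fold change -0.26, SE 0.062, adjusted p = 0.0133), a call that was lost without replicate 2 and without replicate 3. Its relative SMARCA5 (SNF2H) was at -0.17 (SE 0.069), SMARCAD1, a remodeller active in DNA repair, at 0.0093 (SE 0.054) and SMARCAL1, which remodels stalled replication forks, at 0.15 (SE 0.056). None of these passed the test. SMARCA5 did pass with its brightest probe set and without _x_at probe sets (-0.31 in both), without replicate 1 (-0.25), under quantile normalization and without the replicate block, and SMARCAL1 passed under quantile normalization and the trend model.

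Of the 10 genes with a SETD symbol past the limit, 4 rose, 3 fell and 3 did not pass the test, where 58.7% of all genes changed. For each of the 10 the TGFβ and untreated arrays did not overlap, as was so for 68.2% of all genes. The median log2 fold change was 0.10. SETD1B (Entrez 23067) encodes the catalytic subunit of a complex that methylates histones at active promoters. It had log2 signals of 9.89, 9.84 and 9.82 without and 9.26, 9.14 and 9.37 with TGFβ. Its mean fell from 9.85 ± 0.037 to 9.25 ± 0.11 (SD, n = 3), 1.51-fold lower (log2 fold change -0.59, SE 0.063, adjusted p = 0.000528). SETD2, which marks the bodies of transcribed genes, fell by 0.41 (SE 0.084) and SETDB2, of the family that methylates histones of silent chromatin, fell by 0.32 (SE 0.055; -0.20 without the filter, still past the test). Its relative SETDB1 lay just short of the threshold at -0.21 (SE 0.074, adjusted p = 0.0503). It passed in 7 alternatives, among them its brightest probe set (-0.31) and the fit without replicate 2 (-0.30), and was at -0.13 without replicate 3.

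On the other side, SETD9, an enzyme of poorly known function, rose from 7.83, 7.85 and 7.88 to 8.44, 8.31 and 8.39 (log2 fold change 0.52, SE 0.053, adjusted p = 0.000437). The SETD9 probe set that rose by 0.66 passed the limit only with TGFβ (6.75, against 6.09 without). Where a signal of at least 100 was asked on every array, SETD9 was at 0.39, still past the test. SETD4 rose by 0.37 (SE 0.049), SETD7, which methylates transcription factors as well as histones, by 0.27 (SE 0.089) and SETD5 by 0.21 (SE 0.058). The SETD4 value rests on 1 probe set whose name ends in _x_at, a kind that can also bind other messages. Its other probe sets, under the limit, differed by 0.027 and 0.0084. SETD6, which methylates the NF-κB subunit RELA, was at 0.13 (SE 0.053) and SETD3, an actin methyltransferase, at 0.074 (SE 0.051), and neither passed the test. SETD1A stayed under the signal limit. The calls of SETD1B, SETD2, SETDB2 and SETD9 held in every limma alternative at the same threshold. That of SETD4 was lost without the filter (0.13), and those of SETD5 and SETD7 without the filter (SETD7 0.15) and without replicate 2. The SETD5 call was also lost where a signal of at least 100 was asked on every array (0.16, adjusted p = 0.0776). The SETD5 probe set that rose by 0.30 passed the limit only with TGFβ (6.92, against 6.61 without). Without replicate 1, SETD7 was at 0.14. SETD3 passed without the filter (0.35, adjusted p = 0.00332), and SETD6 with its brightest probe set (0.29) and under quantile normalization (0.16).

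PRC2 is formed by EED, SUZ12 and either EZH1 or EZH2 as the methyltransferase. EZH1 and SUZ12 fell, and EED and EZH2 did not pass the test. EZH1 (Entrez 2145), the form that prevails in resting cells, had signals of 7.64, 7.46 and 7.60 without and 6.98, 7.08 and 7.09 with TGFβ. The groups did not overlap, and its mean fell from 7.57 ± 0.094 to 7.05 ± 0.060 (SD, n = 3), 1.43-fold lower (log2 fold change -0.52, SE 0.066, adjusted p = 0.00106). Its probe sets past the limit fell by 0.52 and 0.51, the latter to a mean just under the limit with TGFβ. Without the filter the gene was at -0.30, still past the test. EZH2, the form of dividing cells, was at 8.79, 8.88 and 8.98 without and 9.22, 9.02 and 8.93 with TGFβ, with overlap (log2 fold change 0.17, SE 0.093, adjusted p = 0.158). This value depended on single replicates, being 0.043 without replicate 1 and 0.28, past the test (adjusted p = 0.0368), without replicate 3. SUZ12 fell by 0.18 (SE 0.053, adjusted p = 0.0271), a call lost without the filter (-0.10) and without replicates 2 or 3, and EED, which reads the mark that PRC2 sets, was at 0.078 (SE 0.049).

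Histone lysine demethylases were the largest class. Of 14 genes past the limit, 4 rose, 5 fell and 5 did not pass the test, with a median log2 fold change of -0.030. The shares over all genes were 27.7% higher and 31.0% lower, so these counts were near those of the array. KDM1B (Entrez 221656), the flavin-dependent enzyme LSD2, had log2 signals of 6.48, 6.86 and 6.67 without and 7.69, 7.33 and 7.32 with TGFβ. The groups did not overlap although the spread within each was wide, and the mean rose from 6.67 ± 0.19 to 7.45 ± 0.21 (SD, n = 3), 1.71-fold higher (log2 fold change 0.78, SE 0.14, adjusted p = 0.00367). The call held without each replicate in turn, with values from 0.56 to 0.93. KDM1A, the related LSD1 that SNAI1 recruits to promoters, was at 0.099 (SE 0.065, adjusted p = 0.236), with 0.038 without replicate 2 and 0.17 without replicate 3, not past the test in either.

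The UTX and JMJD3 enzymes both erase the mark that PRC2 sets. KDM6A (UTX) went from 7.22, 7.27 and 7.40 to 7.12, 6.68 and 6.83 and fell by 0.42 (SE 0.10, adjusted p = 0.014). KDM6B (JMJD3) went from 7.00, 6.89 and 7.09 to 7.52, 7.29 and 7.51 and rose by 0.45 (SE 0.051, adjusted p = 0.000691). Neither pair of groups overlapped, and both genes were called in opposite directions. The KDM6B probe sets with a mean past the limit in both groups rose by 0.31 and 0.51. Its others, which rose by 0.33 and 0.64, passed it only with TGFβ, so the filter favoured their rise. The KDM6A probe set past it in both groups fell by 0.35. The other, lower by 0.48, passed it only without TGFβ. The KDM6A call was lost without replicate 2.

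Among the KDM4 enzymes, which act on marks of silent chromatin and of gene bodies, KDM4C fell by 0.43 (SE 0.065) and KDM4B by 0.32 (SE 0.067), whereas KDM4A was at 0.23 (SE 0.085, adjusted p = 0.0583). The mean of KDM4C was past the limit only without TGFβ (6.66, against 6.23 with it). KDM3B, which also acts on a mark of silent chromatin, fell by 0.34 (SE 0.056). KDM5 enzymes erase the mark of active promoters, and here KDM5B fell by 0.33 (SE 0.066), KDM5C rose by 0.18 (SE 0.055) and KDM5A was at -0.048 (SE 0.057). KDM7A rose by 0.19 (SE 0.051). The CpG-island-binding enzymes KDM2A and KDM2B were at -0.12 (SE 0.062) and -0.012 (SE 0.067). KDM2A passed with its brightest probe set (-0.41) and without replicate 1 (-0.17), and was at -0.054 without replicate 3. KDM4A passed in 4 alternatives, among them the fits without the replicate block and without replicate 1 (0.34), and was at 0.14 without replicate 3. Without the filter, which adds probe sets under the limit to a gene's mean, KDM4C was at -0.060, KDM4B at -0.11, KDM5B at -0.18 and KDM5C at -0.12, none past the test, while KDM7A was at 0.44 and KDM5A passed at -0.18 (adjusted p = 0.0461). KDM5C and KDM7A also lost their calls under median centring and without replicate 2. KDM4D and KDM8 stayed under the signal limit.

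Protein arginine methyltransferases act on histones, splicing factors and ribosomal proteins. Of 7 genes past the limit, 3 rose, 1 fell and 3 did not pass the test, with a median log2 fold change of -0.0046. Over all genes, 27.7% rose and 31.0% fell. PRMT3 (Entrez 10196), a cytosolic enzyme whose known substrate is the ribosomal protein RPS2, had log2 signals of 9.13, 9.08 and 9.18 without and 10.02, 9.83 and 9.87 with TGFβ. The groups lay well apart, and the mean rose from 9.13 ± 0.050 to 9.90 ± 0.10 (SD, n = 3), 1.71-fold higher (log2 fold change 0.77, SE 0.059, adjusted p = 0.000154). PRMT1, the main enzyme of asymmetric dimethylation, rose from 11.50, 11.54 and 11.46 to 11.79, 11.95 and 11.88 (log2 fold change 0.37, SE 0.053). PRMT5, the main enzyme of symmetric dimethylation, rose from 9.88, 9.96 and 9.94 to 10.36, 10.22 and 10.25 (log2 fold change 0.35, SE 0.060). Its obligate partner WDR77 rose by 0.52 (SE 0.049, adjusted p = 0.000318). The rises of PRMT1, PRMT3 and PRMT5 held in every limma alternative at the same threshold.

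PRMT6, a nuclear enzyme of asymmetric dimethylation, fell by 0.38 (SE 0.11, adjusted p = 0.0236). This call was lost without replicate 2 and without replicate 3 (-0.25). PRMT7, which adds a single methyl group, was at -0.027 (SE 0.063) and PRMT9, which acts on a splicing factor, at -0.0046 (SE 0.049). PRMT2 was at -0.063 (SE 0.051), a mean over probe sets that were called in opposite directions, 1 lower by 0.34 (adjusted p = 0.00363) and 1 higher by 0.24 (adjusted p = 0.0105). The name of the latter ends in _x_at, which marks probe sets that can also bind other messages, and without it the gene was at -0.16 and passed the test (adjusted p = 0.0382). PRMT8 stayed under the signal limit.

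Histone deacetylases remove acetyl groups and so close chromatin. Of 9 genes past the limit, 2 rose, 2 fell and 5 did not pass the test, with a median log2 fold change of -0.047. Over all genes, 27.7% rose and 31.0% fell. HDAC4 (Entrez 9759), a class IIa enzyme that shuttles between nucleus and cytoplasm, had signals of 8.05, 7.96 and 8.08 without and 7.72, 7.57 and 7.70 with TGFβ. The groups did not overlap, and the gene was 1.29-fold lower (log2 fold change -0.37, SE 0.048, adjusted p = 0.0012; without the filter -0.22, still past the test). HDAC9, of the same class, rose by 0.30 (SE 0.048), a call lost without the filter (0.029). HDAC7, also of class IIa, was at 0.35, with an SE of 0.17 (adjusted p = 0.128), the widest of the class. It had signals of 6.35, 6.66 and 6.75 without and 7.28, 6.68 and 6.84 with TGFβ, with overlap. HDAC7 was at 0.060 without replicate 1 and passed under median centring (adjusted p = 0.0352) and without replicate 3 (0.48). The tubulin deacetylase HDAC6 fell by 0.20 (SE 0.049), lost without replicate 2 or 3 and at 0.050 without the filter. In class I, HDAC2 rose by 0.22 (SE 0.071, adjusted p = 0.0366), lost without replicate 1 (0.14) or 2 and with the brightest probe set (0.12), while HDAC1, its partner in most co-repressors, was at -0.14 (SE 0.055, adjusted p = 0.0635). HDAC1 passed in 4 alternatives, without the replicate block, under quantile normalization (-0.20), under the trend model and without replicate 1 (-0.19). HDAC3 of the NCOR complex was at -0.0062 (SE 0.051), HDAC8 at -0.11 (SE 0.061; -0.046 without replicate 1 and -0.16 without replicate 2) and the class IV enzyme HDAC11 at -0.047 (SE 0.048). HDAC5 and HDAC10 stayed under the signal limit.

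Of the enzymes that set DNA methylation (DNMT) or take it off (TET), 4 genes passed the limit and TET3 alone passed the test. Over all genes, 58.7% passed the test. TET3 (Entrez 200424) oxidises methylcytosine. Its signal was 7.98, 7.89 and 8.13 without and 7.89, 7.71 and 7.93 with TGFβ. The groups overlapped, and the gene was 1.11-fold lower (log2 fold change -0.15, SE 0.051, adjusted p = 0.041). This call was lost in 7 alternatives, among them the fit without the replicate block and those without replicate 2 or 3, and the value was -0.030 without the filter. TET2 was at -0.17 (SE 0.062, adjusted p = 0.0583), the maintenance enzyme DNMT1 at -0.088 (SE 0.057) and the de novo enzyme DNMT3A at 0.0081 (SE 0.050). Without replicate 1, TET2 (-0.20, adjusted p = 0.0307) and DNMT1 (-0.14, adjusted p = 0.0431) passed, and without replicate 3 they were at -0.097 and -0.050. TET1, DNMT3B and DNMT3L stayed under the signal limit, as did the non-coding genes HDAC2-AS2, HDAC4-AS1, KDM7A-DT, PRMT5-AS1 and SMARCAD1-DT. Of the 17 genes under the limit, 4 passed the test where the filter was left out, ARID3A (-0.40), TET1 (-0.35) and KDM4D (-0.20) lower and HDAC2-AS2 (0.22) higher, all at signals under 100.

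Many of these proteins come as pairs of close relatives. Of 24 such pairs, 17 had both genes past the limit. In 3 pairs both changed, in opposite directions: ARID5A rose and ARID5B fell, KDM6B rose and KDM6A fell, and SMARCC1 rose and SMARCC2 fell. The calls of KDM6A, SMARCC1 and SMARCC2 were each lost without replicate 2. In 1 pair, PRMT1 and PRMT3, both rose. In 12 pairs 1 gene passed the test and the other did not, as for EZH1 and EZH2, KDM1B and KDM1A, SMARCD3 and SMARCD1, or KDM4B and KDM4A, and in the last, KDM2A and KDM2B, neither did. Among the genes of these pairs that did not pass, EZH2, SETDB1, KDM2A, KDM4A, KDM5A, HDAC1, HDAC7, ARID1A, SMARCA5 and TET2 did so in at least 1 alternative. The difference between the fold changes of a pair was not tested. With 27.7% of all genes higher and 31.0% lower, unrelated genes can also pair in opposite directions, and how often was not counted.

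**Figure D3:**
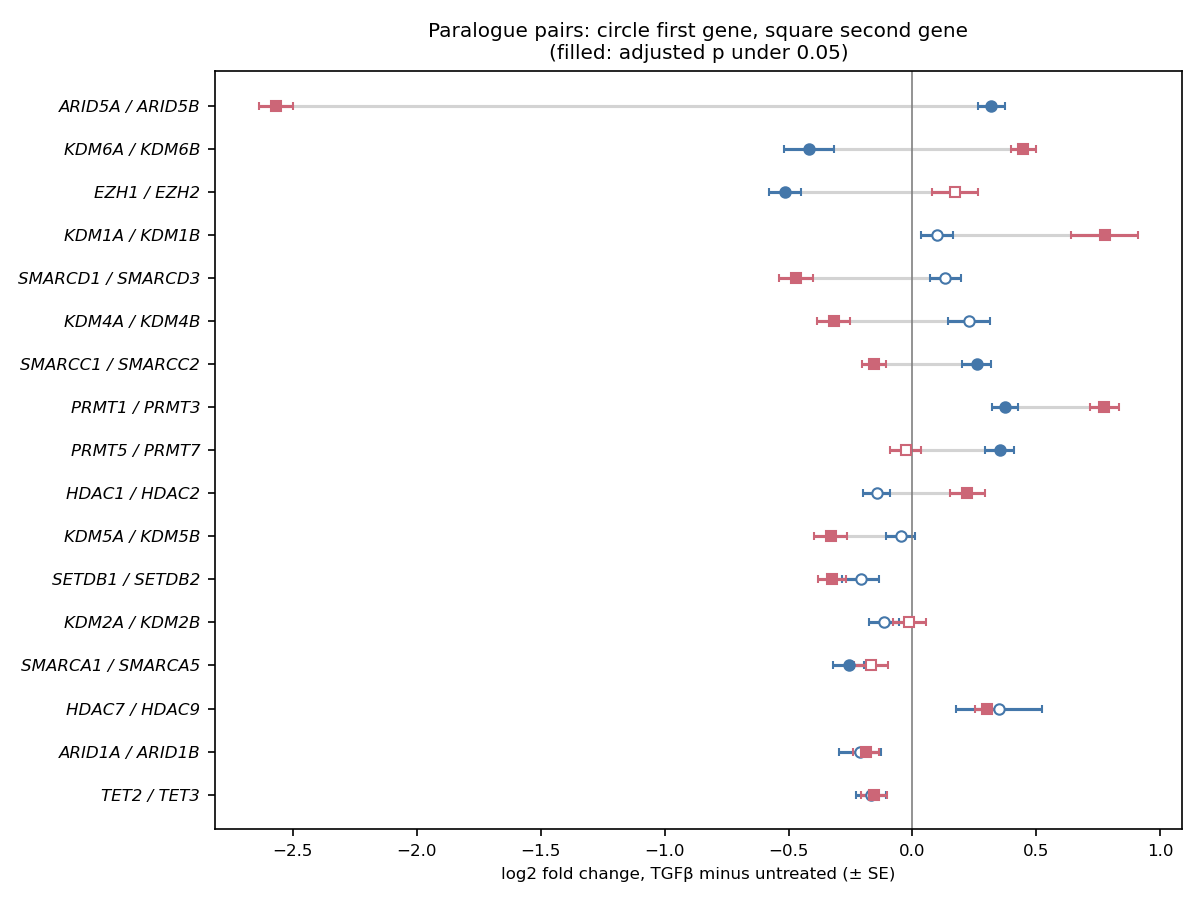
Log2 fold change (TGFβ minus untreated, ± SE) of both genes of 17 pairs of relatives, the first named gene as a circle and the second as a square, filled where adjusted p was under 0.05. Filled points lie on opposite sides of 0 for ARID5A (0.32) and ARID5B (-2.57), KDM6A (-0.42) and KDM6B (0.45), and SMARCC1 (0.26) and SMARCC2 (-0.16).

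The array holds several probe sets for many genes, which read different parts of a message. Of the 66 genes, 34 had 1 probe set past the limit and 32 had several. All probe sets lay on the same side of 0 for 27 of the 32, and on both sides for PRMT2, KDM2A, KDM5A, SETD6 and HDAC11. The brightest probe set of KDM2A fell by 0.41 (adjusted p = 0.00441) while the others were at -0.092 and 0.16 and did not pass. For SETD6, 1 probe set rose by 0.29 (adjusted p = 0.00617) and the other was at -0.026. PRMT2 alone had probe sets called in both directions. In 37 genes, probe sets under the limit stood beside those that were tested.

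**Figure D4:**
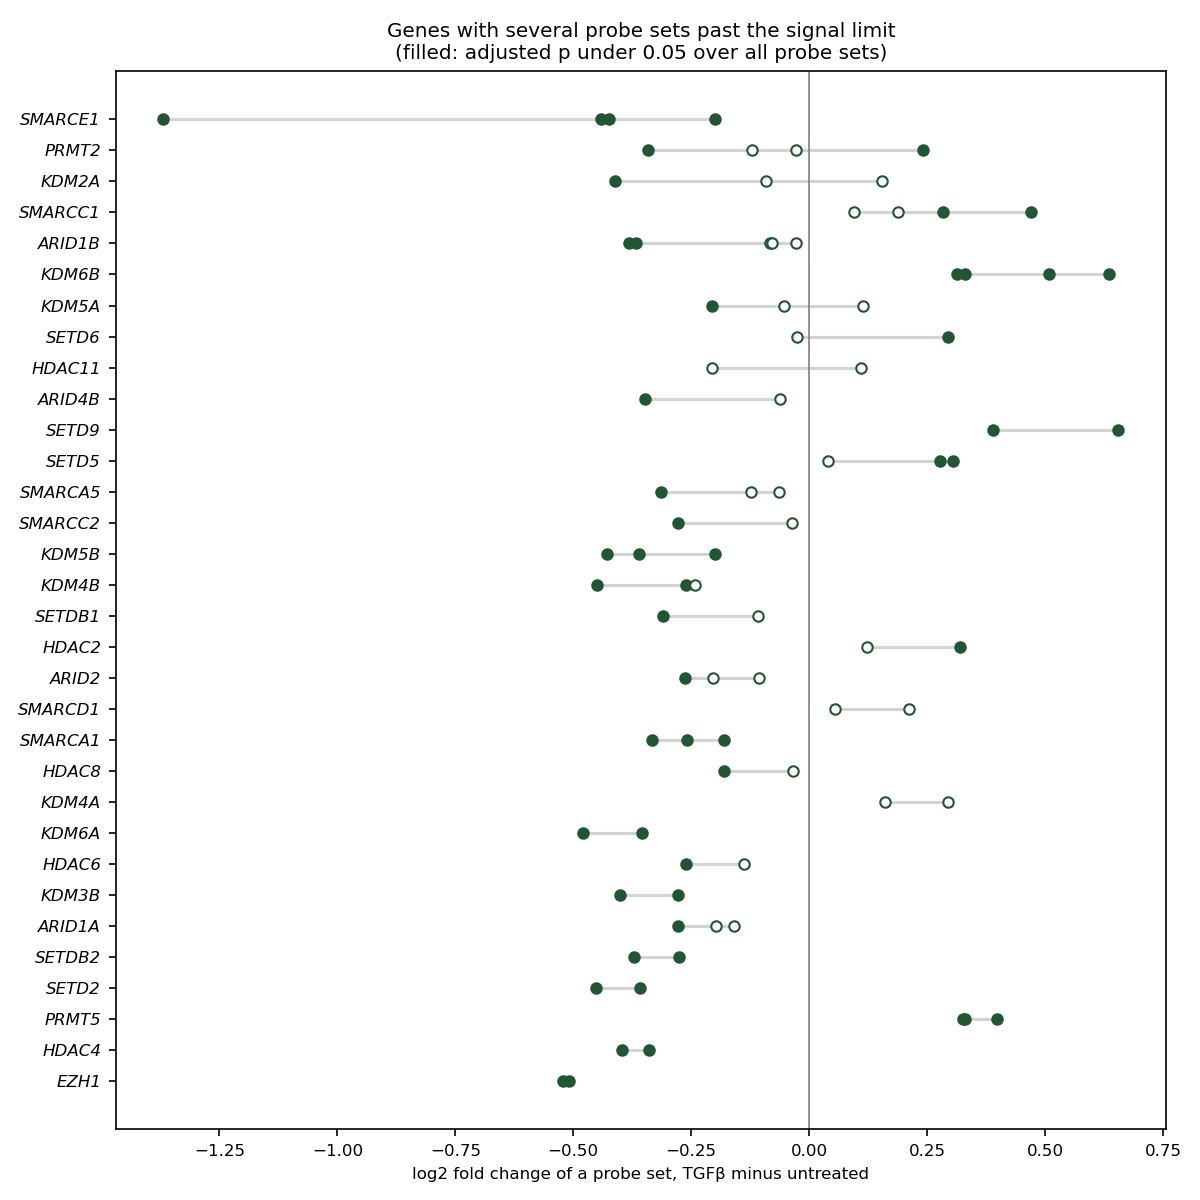
Log2 fold change (TGFβ minus untreated) of each probe set past the limit, for the 32 chromatin genes with several, filled where adjusted p over all probe sets was under 0.05. The probe sets of SMARCE1 spread widest, from -1.37 to -0.20, those of EZH1 lie together at -0.52 and -0.51, and those of PRMT2 reach from -0.34 to 0.24.

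Partners and related enzymes outside the symbol rule were counted from 10 lists, 147 of whose genes were tested. Of these 34 rose and 47 fell (55.1% changed, against 58.7% of all genes), with a median log2 fold change of -0.046. Among all genes 27.7% rose and 31.0% fell, and no list was tested against these shares. Among histone acetyltransferases and coactivators 9 of 14 fell and 1 rose (median -0.29). NCOA2 fell by 0.96 and KAT6B fell by 0.55. Deacetylase co-repressors had 10 of 19 lower and 4 higher, where SIN3A fell by 0.52 and the NuRD subunit GATAD2A rose by 0.55. Further PRC2 and PRC1 proteins had 8 of 20 lower and 3 higher, where the PRC1 subunit CBX7 fell by 0.89 and its partner PHC3 fell by 0.76. Of 6 sirtuins, 3 fell and 0 rose. SIRT1 fell by 0.44 and SIRT3 fell by 0.34.

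In the remaining Jumonji proteins 6 of 12 rose and 2 fell (median 0.17), where 27.7% of all genes rose and 31.0% fell. JMJD1C rose by 0.50 and PHF2, the partner of ARID5B, fell by 0.50. SWI/SNF subunits with other symbols had 5 of 14 higher and 3 lower, where BCL7B rose by 0.41 and the PBAF subunit PHF10 fell by 0.41. Further genes of arginine methylation had 3 of 8 higher and 1 lower, WDR77 and the methylarginine reader TDRD3, which fell by 0.49, being the most changed. Other remodelling ATPases and their partners had 6 of 22 higher and 4 lower, the most changed being BAZ2B, a bromodomain partner of ISWI ATPases, which fell by 0.67, and the ATPase CHD6, which fell by 0.51. Lysine methyltransferases with other symbols changed in 35.0% of 20, 3 higher and 4 lower, and KMT2C fell by 0.60 while SMYD2 rose by 0.47. Readers of DNA methylation and their partners had 3 higher and 3 lower of 12, where UHRF2 rose by 0.26 and ZBTB33 fell by 0.25.

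In the RefSeq table of promoters, 61 of the 66 genes had an entry. Their windows of 250 bases were rich in CpG, with a median of 21 CpG and 65.6% G and C, against 11 and 58.0% over all 27305 windows. Those 27305 include genes that are not on the array or lie under the signal limit. The windows of all tested genes were not compared, here or for the motifs below. The windows of genes that rose (15, median 20 CpG) and of genes that fell (19, median 22) had similar counts. Motifs were searched as exact letters on both strands, each on its own so that matches could overlap. The SMAD box CAGAC was in 41.0% of the 61 windows and 37.8% of all windows, and in 46.7% of those of raised and 36.8% of those of lowered genes. The E-box CACGTG was in 13.1% against 6.49% of all, the AP-1 site TGACTCA in 4.92% against 4.16%, the E-box CACCTG of SNAI and ZEB factors in 9.84% against 17.5% and the TEAD site CATTCC in 6.56% against 11.9%. By direction, CACGTG was in 6.67% of the windows of raised and 21.1% of lowered genes, and CACCTG in 0.0% and 21.1%. TGACTCA was in 6.67% of raised and 10.5% of lowered, and CATTCC in 0.0% and 5.26%. These are matches of letters in a short window, given as a description.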

How the data were processed

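The deposited table held log2 values made by the authors, 1 per probe set and array, for 6 Affymetrix U133 Plus arrays. Their software and normalization are not given in the sources used here. Values showed the unit, and the number of arrays limits the precision. The genes and lists were chosen with earlier results of these data known.

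The platform's annotation named 1 gene for 41091 probe sets, several for 1801 and none for 11721, beside 62 controls. Of 19777 genes, 19735 matched the RefSeq table by Entrez ID, which updated symbols. KDM3A and Y-linked genes were not analysed here.

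Probe sets with a mean log2 signal under 6.64 (a signal of 100) in both groups were left out, as in the study's methods. A probe set that passed only through the group with the higher mean was thereby favoured to differ in that direction. A gene's value was the mean over its other probe sets that name no further gene. Groups were compared by limma 3.58.1 in R 4.3.3 (two-sided). Replicate numbers formed a block, after the paired test of the methods, which left 2 residual and 4.12 prior degrees of freedom. P-values were adjusted over all genes by Benjamini-Hochberg, with a threshold of 0.05, and those of probe sets over all probe sets. SE is that of the fit.

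Values on each array were given for changed genes of at least 1.5-fold and for the most changed gene of each other class, and for further genes picked after their values were seen (ARID5A, SMARCD3, SETD9, EZH2, KDM6A, KDM6B, PRMT1, PRMT5 and HDAC7). From each list of partners, the 2 most changed genes were named. Alternatives covered the block, signal filter, normalization, a constant of 16, variance model, probe sets, replicates, thresholds and the methods' t-test. The workflow was tested on simulated data. Plots were drawn with Python 3.11.15, pandas 2.3.3 and matplotlib 3.10.9.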

Additional observations from a re-analysis of the deposited data

How the results depend on the processing

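The count of chromatin genes that changed depended on the threshold and the replicates, as did the count over all genes. At an adjusted p of 0.01, 10 rose and 12 fell, and of their probe sets 17 rose and 22 fell. Over all 10115 genes, 1966 rose and 2219 fell at that threshold. The methods' paired t-test at an unadjusted p of 0.05 found 10 genes and 17 probe sets higher and 16 genes and 27 probe sets lower, and 4868 of all genes changed. After Benjamini-Hochberg adjustment it found 6 genes and 7 probe sets higher and 3 genes and 5 probe sets lower, and 2414 of all genes changed. With each replicate left out, 9 to 17 genes rose and 13 to 28 fell, and 22 to 50 probe sets fell. In the same fits 4296 to 6484 of all genes changed. Of the 38 changed genes, 15 kept their call in every limma alternative at an adjusted p of 0.05 in which they were tested, 7 higher and 8 lower. A change of sign was found without the filter for TET2 (0.058), HDAC6 (0.050) and KDM5C (-0.12), with the brightest probe set for PRMT2 (0.24) and with quantile normalization for PRMT7 (0.010) and PRMT9 (0.014). With each replicate left out, values near 0 crossed it for DNMT3A (-0.019 to 0.027), PRMT7 (-0.099 to 0.011), PRMT9 (-0.029 to 0.0094), HDAC3 (-0.028 to 0.024), KDM5A (-0.091 to 0.0034), KDM2B (-0.060 to 0.069), ARID3B (-0.046 to 0.033) and SMARCAD1 (-0.037 to 0.040). The cause was not tested. Without the replicate block, 17 genes rose and 23 fell, 36 of the 38 calls being shared. Arrays with the same number did not deviate together (correlations of deviations -0.29, 0.24 and 0.060), so the replicate block rests on the methods alone. Of the 28 genes that did not pass, 16 passed in at least 1 of these limma alternatives. No depth is known for arrays, and genes with signals under 100 were tested only where the filter was left out.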
